A study of Mus musculus with 9 samples.

Results

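At days 3 and 5, 6 cultures of differentiating C2C12 cells were compared: the cells labelled Per1KO and Per2KO were each set against the WT cells of the same day. These are 6 of the 9 libraries of the series, and the other 3 are the day 0 libraries. C2C12 is an established line of mouse myoblasts. The WT population received a non-target sgRNA, and in the others Per1 or Per2 was knocked out with CRISPR-Cas9. All were kept in DMEM with 10% FBS and differentiated in DMEM with 5% horse serum. There was 1 library for each genotype and day, and 1 cell population for each genotype; whether a population is a clone or a pool is not given in the labels. The tissue label reads whole muscle, while the growth protocol describes cultured cells. All 7 myoblast and all 10 myotube markers passed the filter, with summed levels of 6290 to 8779 CPM and 10387 to 24712 CPM, whereas the 6 endothelial markers summed to at most 3.52 CPM and the 7 immune markers to at most 2.13 CPM in any of the 6 libraries. Markers of smooth muscle summed to 1974 to 4468 CPM, of fibroblasts to 1289 to 1474 CPM, of tenocytes to 189 to 311 CPM, of adipocytes to 58.5 to 179 CPM and of neural cells to 42.5 to 213 CPM. CPM, the unit of all levels here, is the read count of a gene per 1000000 reads of the TMM-scaled library size. Of 21697 protein-coding genes in the table, 11795 reached 1 CPM in at least 2 of the 6 libraries and were tested, among 13370 tested genes of all classes. A gene under 1 CPM in every library of WT, or of the knockouts, passed this filter only through the group where it is high. Its entry into the test thus depended on its difference. Below this holds for genes such as Ptpn5, Gm12248, Greb1 and Nppc, high in WT, and Itgb7, Rspo3 and Cxcl5, high in the knockouts.

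Myoblasts withdrawn from growth serum leave the cell cycle, switch on myogenin and fuse into myotubes, which then assemble sarcomeres. They do so inside a matrix of collagens and glycoproteins that they partly make themselves, and in response to secreted factors such as insulin-like growth factors. Per1 and Per2 are repressors of the circadian clock: with the cryptochromes they inhibit the activator pair CLOCK and BMAL1, whose gene is Arntl. ATF4, which appears below, is a transcription factor that cells make when amino acids run short or the endoplasmic reticulum is stressed, and it switches on amino acid transport and synthesis.

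Depth differed between the groups. The WT libraries held 5771983 counts on day 3 and 5020385 on day 5, and the 4 knockout libraries held 41997763 to 48051824, so that WT was sequenced at least 7.28 times less deeply. The limit set by a count of 0, taken as 3 counts, was 0.527 to 0.638 CPM in WT and 0.0603 to 0.0708 CPM in the knockouts, counting error only. Only the titles of the WT libraries carry an added suffix, which reads like a lane, and the labels do not explain it. Depth and this suffix thus separate WT from knockout, so that genotype cannot be told apart from depth or from what the suffix stands for. Processed pseudogenes, copies that share sequence with their parent genes, took 0.589% to 0.740% of the counts in WT and 1.35% to 1.47% in the knockouts; their part in the results was not tested. The 2 knockouts lay close together. Over the 9046 protein-coding genes that averaged 10 CPM or more, the median size of the log2 difference between them was 0.06 on day 3 and 0.07 on day 5, whereas that of their mean from WT was 0.31 and 0.30. They were not copies of a single library, since 40.5% of these genes differed between them beyond counting noise on day 3 and 42.5% on day 5. The test's error combines this difference between the knockouts with the change of the knockout difference between the days. How much 2 WT cultures of the same day vary was not measured, and the p-values speak of these cell populations and libraries. Where a WT library is left out below, the fit matches the remaining WT library exactly. The error of such a fit is the difference between the knockouts alone. Its p-values, calls and counts rest on a single WT library and leave out the change between the days.

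The targeted genes did not mark the groups by their mRNA. Per1 was at 32.5 and 30.0 CPM in WT on days 3 and 5, at 31.5 and 27.9 CPM in Per1KO, and at 29.5 and 31.9 CPM in Per2KO. The groups overlapped, and the log2 fold change of knockouts over WT was -0.05 ± 0.10 with an adjusted p-value of 0.735. The ± here and below is an approximate SE, derived from the fold change and the test statistic. Per2 was at 11.1 and 19.8 CPM in WT, at 9.18 and 10.2 CPM in Per1KO, and at 8.86 and 8.12 CPM in Per2KO. It was lower than WT in all 4 same-day pairs, with a log2 fold change of -0.73 ± 0.22 and an adjusted p-value of 0.0363. Its call was lost when any of the libraries except WT day 3 was left out; without WT day 5 the value was -0.31 (adjusted p-value 0.273), and without WT day 3 it was -1.12. The edited alleles were not analysed here, and an edit need not lower an mRNA.

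To ask what differed from WT on both days and in both knockouts, a gene was called when edgeR's quasi-likelihood test, with the day as a block, gave an adjusted p-value under 0.05 and the gene lay on the same side of WT in all 4 same-day pairs. By this rule, 1928 protein-coding genes were higher in the knockouts (16.3% of those tested) and 2483 were lower (21.1%), together 37.4%. Over the 10693 that share under 10% of their 31-mers (runs of 31 bases) with other genes, the shares were 15.8%, 21.2% and together 37%. Most of these differences were small. The median log2 fold change was 0.58 among genes called higher and -0.74 among genes called lower, against -0.01 over all tested protein-coding genes, and 2573 of the called genes stayed within 2-fold of WT in all 4 pairs. At least a 2-fold difference in every pair was reached by 239 genes called higher (2.03%) and 578 called lower (4.9%). At 4-fold there were 71 (0.602%) and 218 (1.85%), and at 8-fold 31 (0.263%) and 103 (0.873%). When each knockout was tested on its own and a call in both was required, 866 of the genes called higher and 1345 of those called lower were called again. Leaving out 1 knockout library lowered the higher count by more than 1.5 times in 3 cases: to 1240 without Per1KO day 3, 1180 without Per2KO day 3 and 1139 without Per2KO day 5. Genes called higher had a median GC content of 46.5% and a median longest transcript of 4087 bases, and genes called lower 52.8% and 3078 bases, against 49.7% and 3477 bases over all tested. With trends on GC content and transcript length taken out of each library, 1478 of the genes called higher and 2036 of those called lower were called again in the same direction.

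The largest falls were of genes that WT cultures expressed and the knockout cultures nearly lacked. For these and every gene below, a lower level in bulk RNA does not tell fewer expressing cells from less RNA per cell. Ptpn5 (chromosome 7, 47077795 to 47133684, minus strand, on build GRCm38 as all positions here) encodes a tyrosine phosphatase best known from neurons. It was at 34.6 and 42.3 CPM in WT on days 3 and 5, at 0.101 and 0.0926 CPM in Per1KO, and at 0.100 and 0.165 CPM in Per2KO. Each knockout library lay far below both WT libraries, with a log2 fold change of -8.35 ± 0.17 and an adjusted p-value of 2.24e-06. Gm12248 (chromosome 11, 58063552 to 58093134), a predicted gene, went from 35.5 and 77.0 CPM in WT to between 0.0402 and 0.212 CPM in the knockouts; these rest on 2 to 9 reads a library, and no fold is given since 1 library has under 4 reads. The knockout values of Ptpn5 likewise rest on 4 to 7 reads a library and those of Greb1 on 4 to 18, so their fold changes are rough. The ± printed for Ptpn5 understates the counting error of so few reads. Ptpn5, Gm12248 and Greb1 passed the filter only through the WT libraries. Greb1 (chromosome 12, 16670615 to 16800886), known as a target of the oestrogen receptor, was at 37.0 and 81.6 CPM in WT and at 0.0926 to 0.362 CPM in the knockouts, with a log2 fold change of -7.89 ± 0.36 (adjusted p-value 3.86e-05).

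Several of the other large falls were of secreted proteins and of enzymes. Cilp (chromosome 9, 65265180 to 65280605) encodes a matrix protein of cartilage and tendon that binds growth factors. It was at 289 and 1355 CPM in WT, at 3.5 and 1.76 CPM in Per1KO, and at 1.89 and 2.17 CPM in Per2KO. WT was far above every knockout library on both days, with a log2 fold change of -8.19 ± 0.60 (adjusted p-value 1.95e-04). Nppc, the gene of C-type natriuretic peptide, was at 17.6 and 46.4 CPM in WT and at 0.162 to 0.604 CPM in the knockouts. Dpt (dermatopontin, a matrix protein) was at 75.7 and 138 CPM in WT and at 2.99 to 5.97 CPM in the knockouts. Car9, a carbonic anhydrase known as a hypoxia target, was at 19.5 and 37.0 CPM against 0.684 to 1.41 CPM. Slc7a2, a transporter of arginine and lysine, was at 37.0 and 85.9 CPM against 1.43 to 3.61 CPM. For these 4 genes the groups did not overlap, and the log2 fold changes ran from -6.37 (Nppc) over -4.73 (Car9) and -4.62 (Dpt) to -4.49 (Slc7a2), with adjusted p-values of at most 2.50e-04. The rest of the 12 largest falls, Fgf21, Cth, Vldlr and Trib3, are given with the ATF4 genes.

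The 12 largest rises were taken, like the falls, from called genes averaging 10 CPM or more that share under 10% of their 31-mers; genes below that level, such as Cxcl5 and Itgb7, are given later. Slc24a3 (chromosome 2, 145167754 to 145642166, plus strand) encodes a potassium-dependent sodium-calcium exchanger. It was at 5.62 and 11.1 CPM in WT, at 86.8 and 93.0 CPM in Per1KO, and at 88.1 and 105 CPM in Per2KO. All 4 knockout libraries lay above both WT libraries, with a log2 fold change of 3.52 ± 0.19 (adjusted p-value 6.41e-05). Cp (chromosome 3, 19957054 to 20009145), ceruloplasmin, a copper-carrying ferroxidase, was at 23.3 and 42.5 CPM in WT, at 255 and 344 CPM in Per1KO, and at 284 and 372 CPM in Per2KO. Its log2 fold change was 3.29 ± 0.14 (adjusted p-value 3.57e-05). Sema3c, a secreted guidance protein of the semaphorin family, was at 52.5 and 103 CPM in WT and at 516 to 770 CPM in the knockouts. Ccl2, a chemokine that draws monocytes, was at 4.92 and 2.98 CPM in WT and at 36.6 to 44.4 CPM in the knockouts. Nog, noggin, which binds and inhibits bone morphogenetic proteins, was at 1.58 and 3.19 CPM in WT and at 18.3 to 21.9 CPM in the knockouts. The log2 fold changes of these 3 genes were 3.07, 3.35 and 3.15, with adjusted p-values of at most 7.32e-04.

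The other members of the 12 largest rises included a sarcomere gene. Myl2, the slow and cardiac regulatory myosin light chain, was at 2.63 and 18.5 CPM in WT, at 22.5 and 230 CPM in Per1KO, and at 20.4 and 155 CPM in Per2KO. Each knockout was above WT of the same day, although the day 3 levels in the knockouts were close to the WT level of day 5. The log2 fold change was 3.30 ± 0.25 (adjusted p-value 2.37e-04), and the call was lost without the WT day 5 library (3.01, adjusted p-value 0.107). Aldh3a1, an aldehyde dehydrogenase, was at 8.60 and 10.2 CPM in WT and at 44.0 to 79.9 CPM in the knockouts. Rcan2, an inhibitor of calcineurin, was at 30.5 and 50.8 CPM against 134 to 221 CPM. Rab3il1, an exchange factor of Rab proteins, was at 19.8 and 14.0 CPM against 78.0 to 83.5 CPM. The last of these is a steady difference: every knockout library lay within a narrow range well above WT. Sned1 and Hmcn1, both matrix proteins, had log2 fold changes of 2.54 and 2.58 (19.6% of the exon bases of Sned1 overlap another gene), but the call of Hmcn1 was lost without WT day 3 (2.49, adjusted p-value 0.0655). Ppp2r2b, a regulatory subunit of protein phosphatase 2A, had 2.24.

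**Figure D1:**
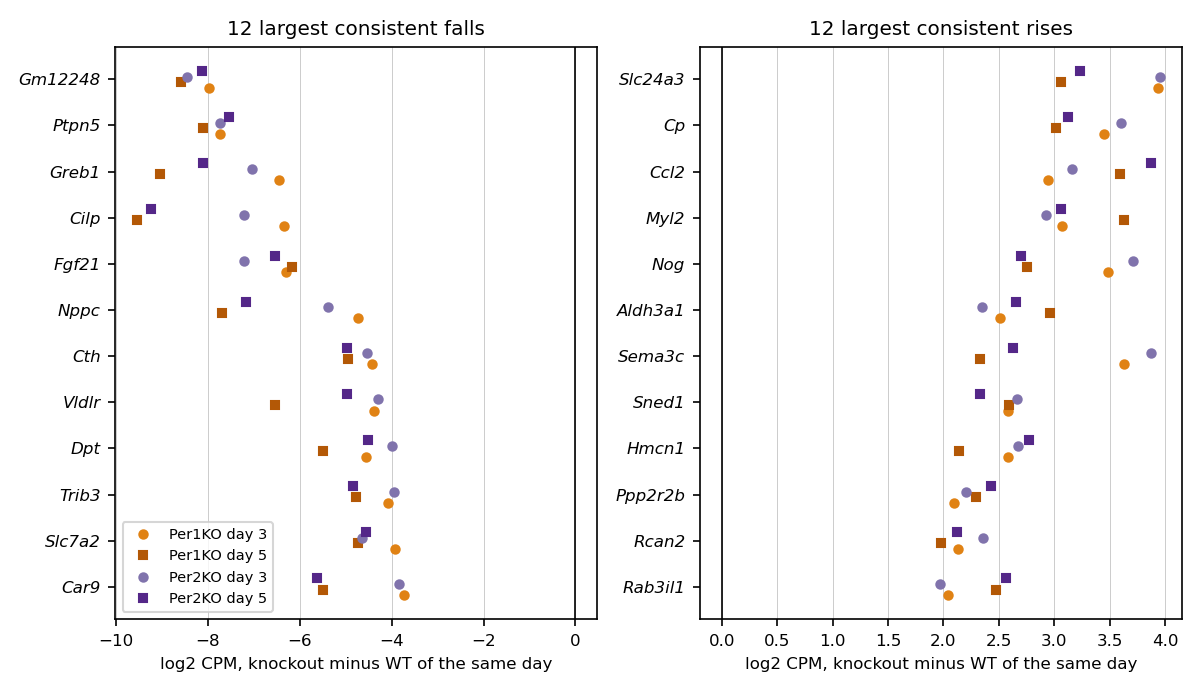
Log2 CPM difference between each knockout library and the WT library of the same day (x axis) for the 12 largest falls, left, and the 12 largest rises, right, among called protein-coding genes averaging 10 CPM or more that share under 10% of their 31-mers with other genes. Each gene has 4 points, 1 per knockout and day, and all 4 lie on the same side of 0; Ptpn5 and Rab3il1 have nearly equal values in all 4 pairs, whereas Cilp and Sema3c differ between the days.

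The most widely lowered group was that of the ATF4 and unfolded protein response genes. Of its 30 genes, all tested, 23 were lower in the knockouts, where 21.1% of all tested protein-coding genes were, and 1 was higher. In 19 of the 23 the fall reached 2-fold in all 4 pairs. For each list below, the shares over all tested protein-coding genes are 21.1% lower and 16.3% higher. The list holds targets of ATF4 and targets of the chaperone arm of the response, and their promoters were searched for the element of each arm. Promoter sequence from RefSeq on GRCm38.p6 was matched by symbol to 9321 of the 11795 tested protein-coding genes, and the 250 bases before the start were searched on both strands. The letters TGATGNAA, the core of the composite element bound by ATF4 with a C/EBP protein, were present in 8 of the 21 called-lower members with a sequence (38.1%) and in 0 of the 7 other members, against 2.41% of all tested genes, 3.67% of the genes called lower and 1.43% of those called higher. The endoplasmic reticulum stress element, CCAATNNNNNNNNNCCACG, was present in 0 of the 21 and in 3 of the 7, against 0.15% of all tested genes. Among all genes at least 2-fold lower in every pair, 24 of 430 (5.58%) held TGATGNAA. The list was made of known targets of both arms, so the shares within it follow in part from how it was made. They are a description and no test of a cause. A match is a description of the letters and not a measured binding site.

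From this list 3 promoters with the first element and 1 with the second are shown, because the genes differ in their response to the knockouts: Fgf21, Chac1 and Slc7a11 were lower on both days and Creld2 was not called. Each is the 250 bases before the RefSeq start, 5′ to 3′ on the strand of the gene, with the matched letters or their reverse complement in capitals. The Slc7a11 window has 2 matches that do not overlap. The Fgf21 window lies at chr7:45615491-45615740 (minus strand), that of Chac1 at chr2:119350992-119351241 (plus), that of Slc7a11 at chr3:50443614-50443863 (minus) and that of Creld2 at chr15:88819396-88819645 (plus).
Fgf21: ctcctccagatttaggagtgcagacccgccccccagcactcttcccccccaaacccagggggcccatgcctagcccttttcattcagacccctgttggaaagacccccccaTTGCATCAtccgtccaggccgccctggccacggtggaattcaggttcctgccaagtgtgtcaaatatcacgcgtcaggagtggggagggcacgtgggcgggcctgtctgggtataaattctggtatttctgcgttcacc
Chac1: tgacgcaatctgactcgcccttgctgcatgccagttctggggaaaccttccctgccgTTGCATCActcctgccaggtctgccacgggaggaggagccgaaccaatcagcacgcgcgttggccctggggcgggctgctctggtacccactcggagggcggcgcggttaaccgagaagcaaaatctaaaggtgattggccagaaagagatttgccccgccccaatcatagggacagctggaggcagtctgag
Slc7a11: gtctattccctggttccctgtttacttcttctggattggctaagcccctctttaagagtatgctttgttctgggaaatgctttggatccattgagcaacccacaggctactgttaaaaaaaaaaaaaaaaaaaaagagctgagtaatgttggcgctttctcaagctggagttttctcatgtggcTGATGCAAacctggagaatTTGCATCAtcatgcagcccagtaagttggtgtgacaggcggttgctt
Creld2: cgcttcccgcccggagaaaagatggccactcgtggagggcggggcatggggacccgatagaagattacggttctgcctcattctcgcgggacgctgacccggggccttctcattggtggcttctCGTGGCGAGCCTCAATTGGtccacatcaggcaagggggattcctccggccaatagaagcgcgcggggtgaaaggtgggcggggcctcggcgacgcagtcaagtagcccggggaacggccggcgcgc

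The factor and its partners were lower. Atf4 itself (chromosome 15, 80255184 to 80257541) was at 666 and 924 CPM in WT on days 3 and 5, at 383 and 420 CPM in Per1KO, and at 362 and 410 CPM in Per2KO. The knockout libraries were all below both WT libraries, with a log2 fold change of -1.0 ± 0.10 (adjusted p-value 5.76e-04). ATF4 is controlled mainly at translation, so its mRNA is only part of its amount. Ddit3, which encodes CHOP, was at 52.7 and 96.5 CPM in WT and at 19.4 to 25.8 CPM in the knockouts, with -1.72 ± 0.25 (adjusted p-value 0.00281); without WT day 5 the value was -1.06. Atf3, Atf5, Cebpb and Nupr1, further stress transcription regulators, had log2 fold changes between -1.77 and -1.64 and were called lower. Trib3, a pseudokinase that feeds back on ATF4, was at 81.6 and 215 CPM in WT, at 4.77 and 7.80 CPM in Per1KO, and at 5.25 and 7.39 CPM in Per2KO. This was the largest fall among the regulators, with -4.45 ± 0.17 (adjusted p-value 2.36e-05).

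Genes of amino acid transport and synthesis were lower too. Slc7a11, the cystine transporter whose promoter is printed above, was at 11.1 and 31.3 CPM in WT, at 1.81 and 1.25 CPM in Per1KO, and at 1.57 and 1.70 CPM in Per2KO, with a log2 fold change of -3.64 ± 0.37 (adjusted p-value 6.93e-04). Slc7a5, a carrier of large neutral amino acids, was at 464 and 1132 CPM in WT and at 86.0 to 129 CPM in the knockouts. Asns, asparagine synthetase, was at 183 and 432 CPM in WT, at 54.1 and 86.2 CPM in Per1KO, and at 47.6 and 83.1 CPM in Per2KO. All were below WT of either day, and the log2 fold changes were -2.75 ± 0.22 for Slc7a5 and -2.11 ± 0.12 for Asns. The serine and one-carbon enzymes Psph (-2.32), Mthfd2 (-1.91), Shmt2 (-1.36), Phgdh (-1.32, with 74.1% of its 31-mers in other genes) and Psat1 (-1.04), and the formyltetrahydrofolate dehydrogenase Aldh1l2 (-2.66), were all called lower. Cth, which makes cysteine from cystathionine and is on none of the lists, was at 22.5 and 46.4 CPM in WT and at 0.904 to 1.44 CPM in the knockouts. Its log2 fold change was -4.81 ± 0.15 (adjusted p-value 9.56e-06).

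Fgf21 and Vldlr had the largest falls of the list. Fgf21 (chromosome 7, 45613886 to 45615490, minus strand), a hormone that stressed muscle and liver release, was at 57.0 and 87.2 CPM in WT, at 0.664 and 1.16 CPM in Per1KO, and at 0.322 and 0.873 CPM in Per2KO. No knockout library came near WT, and the log2 fold change was -6.61 ± 0.21 (adjusted p-value 1.01e-05). Chac1, an enzyme that breaks down glutathione, was at 139 and 183 CPM in WT, at 13.8 and 29.0 CPM in Per1KO, and at 11.6 and 27.3 CPM in Per2KO, with -3.08 ± 0.17 (adjusted p-value 7.51e-05). Vldlr, the very low density lipoprotein receptor, was at 30.4 and 103 CPM in WT and at 1.04 to 3.23 CPM in the knockouts, with -5.07 ± 0.41 (adjusted p-value 2.73e-04). Sesn2, an inhibitor of mTORC1 signalling, was at 61.6 and 105 CPM in WT and at 13.4 to 15.6 CPM in the knockouts, with -2.47 ± 0.14.

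Most chaperone genes of the list were not called. Herpud1, another unfolded protein response gene of the list, was called lower (log2 fold change -1.60), and its promoter window holds the letters TGATGNAA. Hspa5, which encodes the chaperone BiP, was at 1113 and 896 CPM in WT, at 1031 and 958 CPM in Per1KO, and at 1052 and 971 CPM in Per2KO. The groups overlapped, with a log2 fold change of 0.00 ± 0.09 (adjusted p-value 0.977). Creld2, whose promoter holds the endoplasmic reticulum stress element, was at 53.2 and 41.7 CPM in WT and at 45.6 to 52.9 CPM in the knockouts, with 0.06 ± 0.08 (adjusted p-value 0.575). Xbp1, Sdf2l1, Pdia4 and Dnajb9 had values between -0.20 and 0.02 and were not called. For Sdf2l1 this averages 2 opposite differences, 0.86 without WT day 3 and -0.63 without WT day 5. Pdia4 was at -0.24 without WT day 5. Xbp1 was at -0.23 without WT day 3 and at -0.20 without WT day 5, and was called with DESeq2. Hsp90b1, the third gene with that element, was higher, at 745 and 516 CPM in WT and at 869 to 1160 CPM in the knockouts (0.68 ± 0.10, adjusted p-value 0.00250). The count of members called lower stayed between 23 and 26 with any of the 6 libraries left out. On day 0, which the comparison did not use, the median log2 difference of the list from WT was -0.18 in Per1KO and 0.60 in Per2KO. Trib3, for example, was at 96.2 CPM in WT, 59.5 CPM in Per1KO and 298 CPM in Per2KO on that day.

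**Figure D2:**
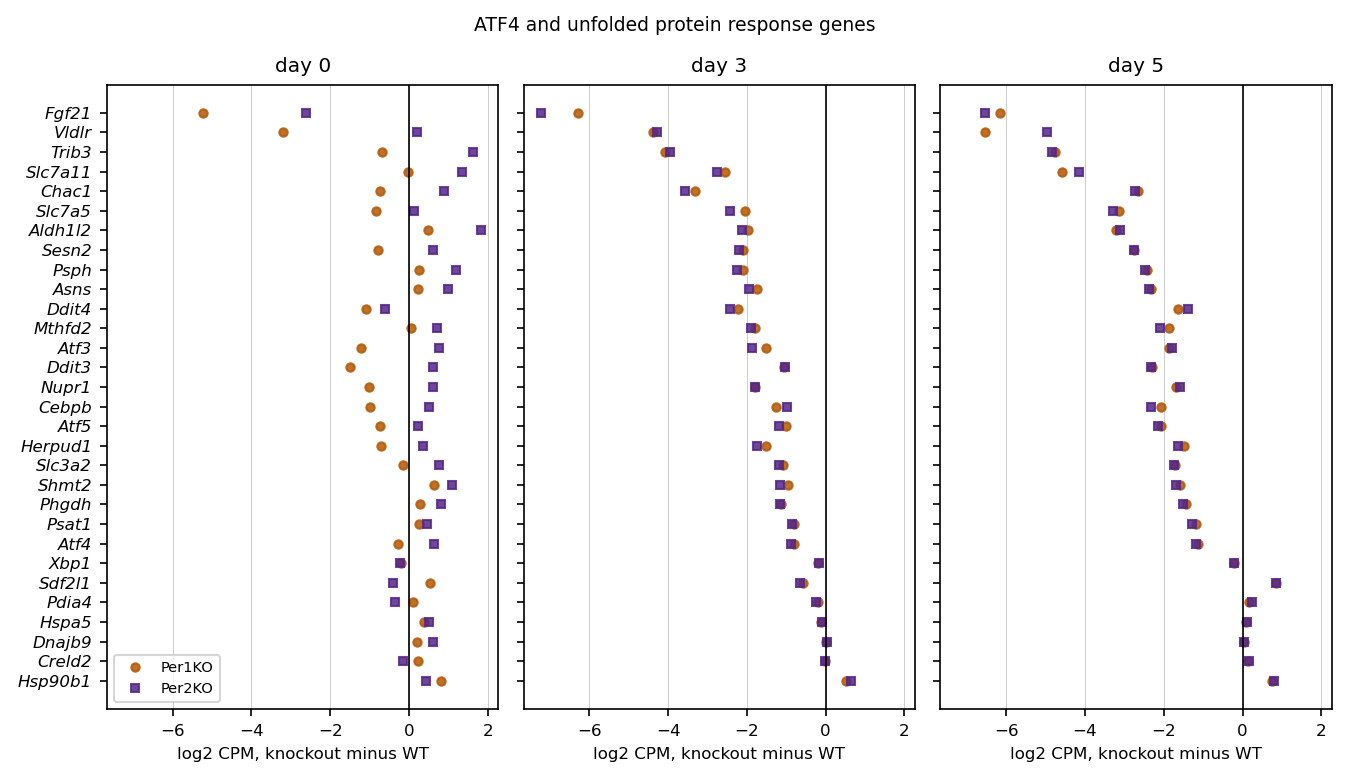
Log2 CPM difference of Per1KO (circles) and Per2KO (squares) from WT of the same day for the 30 ATF4 and unfolded protein response genes, ordered by the fold change over days 3 and 5, with day 0, day 3 and day 5 in panels from left to right. On days 3 and 5 the knockouts coincide and the upper 23 genes lie left of 0, whereas on day 0 the knockouts lie apart and many Per2KO values lie right of 0, Trib3 among them.

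Extracellular matrix genes formed the other large block of falls. Of 23 tested collagen genes, 15 were lower and 2 higher, with a median log2 fold change of -1.44, and 10 were at least 2-fold lower in every pair. The median difference was -0.98 in Per1KO and -1.18 in Per2KO on day 3, and -2.18 and -1.90 on day 5. In 11 of the 23 the difference changed between the days, against 21.4% of all tested protein-coding genes. Fibrillar collagens were among those lowered. Col1a1 (chromosome 11, 94936224 to 94953042), the main chain of type I collagen, was at 1666 and 3546 CPM in WT, at 212 and 206 CPM in Per1KO, and at 188 and 295 CPM in Per2KO. WT was above every knockout library, with a log2 fold change of -3.46 ± 0.21 (adjusted p-value 9.93e-05). Its partner Col1a2 was at 2349 and 4143 CPM in WT and at 724 to 961 CPM in the knockouts, with -1.87 ± 0.22. Col3a1 was at 7536 and 13443 CPM in WT, at 5487 and 2960 CPM in Per1KO, and at 4801 and 3605 CPM in Per2KO. Here the day mattered: over both days the log2 fold change was -1.36 ± 0.31 (adjusted p-value 0.0156), without WT day 3 it was -2.04 and without WT day 5 it was -0.56, and the call was lost without Per2KO day 5 (adjusted p-value 0.0675).

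Other collagen classes went both ways. The 3 chains of the bead-forming type VI, which surrounds muscle fibres, were called lower, with log2 fold changes of -2.11 (Col6a1), -2.51 (Col6a2) and -2.20 (Col6a3). Col6a1 was at 1032 and 1614 CPM in WT and at 197 to 437 CPM in the knockouts. Without WT day 5 the values were -1.36, -1.85 and -1.33, and the call of Col6a2 was lost (adjusted p-value 0.0669). Col8a1, a short-chain collagen, was at 445 and 835 CPM in WT and at 59.6 to 65.8 CPM in the knockouts, a tight and low range (-3.28 ± 0.20). The basement membrane collagens were the 2 higher members. Col4a1 was at 259 and 320 CPM in WT, at 789 and 669 CPM in Per1KO, and at 729 and 759 CPM in Per2KO. Its groups did not overlap, with a log2 fold change of 1.35 ± 0.13 (adjusted p-value 5.35e-04), and its neighbour Col4a2 had 1.28 ± 0.13; the annotation has the pair overlapping on chromosome 8. The lower count of the list stayed between 12 and 17 with any library left out.

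Glycoproteins and proteoglycans of the matrix form the next list. Of 34 tested, 18 were lower and 4 higher, with a median of -0.97 over both days. By day, the median was -0.26 in Per1KO and -0.49 in Per2KO on day 3, and -1.36 and -1.11 on day 5. In 18 of the 34 the difference changed between the days, against 21.4% of all tested protein-coding genes. Postn, periostin, was at 129 and 671 CPM in WT, at 25.6 and 65.1 CPM in Per1KO, and at 21.4 and 69.7 CPM in Per2KO (-2.92 ± 0.19, adjusted p-value 1.17e-04). Thbs2, a thrombospondin, was at 906 and 2150 CPM in WT and at 181 to 314 CPM in the knockouts (-2.57 ± 0.37, and -1.58 without WT day 5). Tnc, tenascin C, was at 970 and 423 CPM in WT and at 108 to 255 CPM in the knockouts (-1.92 ± 0.11). In each of these 3 genes every knockout library was below both WT libraries. Fn1, fibronectin, was at 7664 and 19109 CPM in WT, at 7596 and 4908 CPM in Per1KO, and at 6778 and 5766 CPM in Per2KO; it stood near WT on day 3 and was not called (-1.06 ± 0.36, adjusted p-value 0.0587). Without WT day 3 it was at -1.85 and without WT day 5 at -0.10, and it was called under 3 settings that kept both WT libraries. The higher members were Lama2, the laminin chain of muscle basement membrane (0.74 ± 0.10), the basement membrane proteoglycan Hspg2 (0.61), and the small proteoglycans Ogn (0.48) and Dcn (0.37). The count of 4 was 1 without Per1KO day 3, Per2KO day 3 or Per2KO day 5, since Hspg2, Ogn and Dcn were then not called (adjusted p-values up to 0.0981), and 9 without WT day 5. Without WT day 3 the values of Hspg2 and Ogn were 0.29 and 0.19, not called, and without WT day 5 they were 0.94 and 0.77.

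Enzymes that act on the matrix split. Of 29 tested proteases and inhibitors, 10 were lower and 7 higher. Mmp2, gelatinase A (chromosome 8, 92827291 to 92853420), was at 350 and 858 CPM in WT, at 36.9 and 35.6 CPM in Per1KO, and at 40.0 and 55.7 CPM in Per2KO, with a log2 fold change of -3.74 ± 0.26 (adjusted p-value 1.66e-04). Adamts2, which trims the ends of procollagens, was at 239 and 682 CPM in WT and at 38.7 to 53.0 CPM in the knockouts (-3.16 ± 0.34). Adam12, a metalloprotease of fusing myoblasts, was at 38.4 and 55.1 CPM in WT and at 3.59 to 4.71 CPM in the knockouts (-3.54 ± 0.18). All 3 were far below WT on both days. Serpine2 was among the higher members, with 4.74 and 5.10 CPM in WT against 11.3 to 16.6 CPM (1.47 ± 0.16). Of 17 integrin genes, 5 were lower and 4 higher, where 21.1% and 16.3% of all tested protein-coding genes were. Itga11, a collagen receptor chain, had -3.31 and Itga4 -1.46. Itga3, a laminin receptor chain, was higher, at 34.6 and 57.0 CPM in WT and at 146 to 165 CPM in the knockouts (1.79 ± 0.14, adjusted p-value 2.81e-04). Itgb7 had 0 counts in both WT libraries and was at least 3.05-fold higher in every knockout library, measured against 3 counts per WT library. It passed the filter only through the knockout libraries.

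Markers of fibroblasts stood beside these matrix genes as follows. Of 10 listed, 8 were tested, 5 were called lower (Lum, Dpt, Pi16, Cd34 and Pdgfra) and 1 higher (Dcn), while Thy1 and Tcf21 had 0 counts in all 6 libraries. Their summed level was 1297 to 1435 CPM in WT and 1289 to 1474 CPM in the knockouts. Dcn, Ly6a and Pdgfrb made up most of this sum in every library, and of these only Dcn was called. The sum therefore hides the falls of the 5 lower markers. Cd34, the highest of the 5, was at 103 and 152 CPM in WT and at 13.5 to 25.8 CPM in the knockouts. The 11 markers of chondrocytes and osteoblasts summed to 419 to 1475 CPM in WT and 81.3 to 105 CPM in the knockouts, of which Cilp made up most in WT. Of these 4 were tested, 2 were called lower (Cilp and Sox9), and Ibsp had 0 counts. The part of such cells in the matrix results was not tested.

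**Figure D3:**
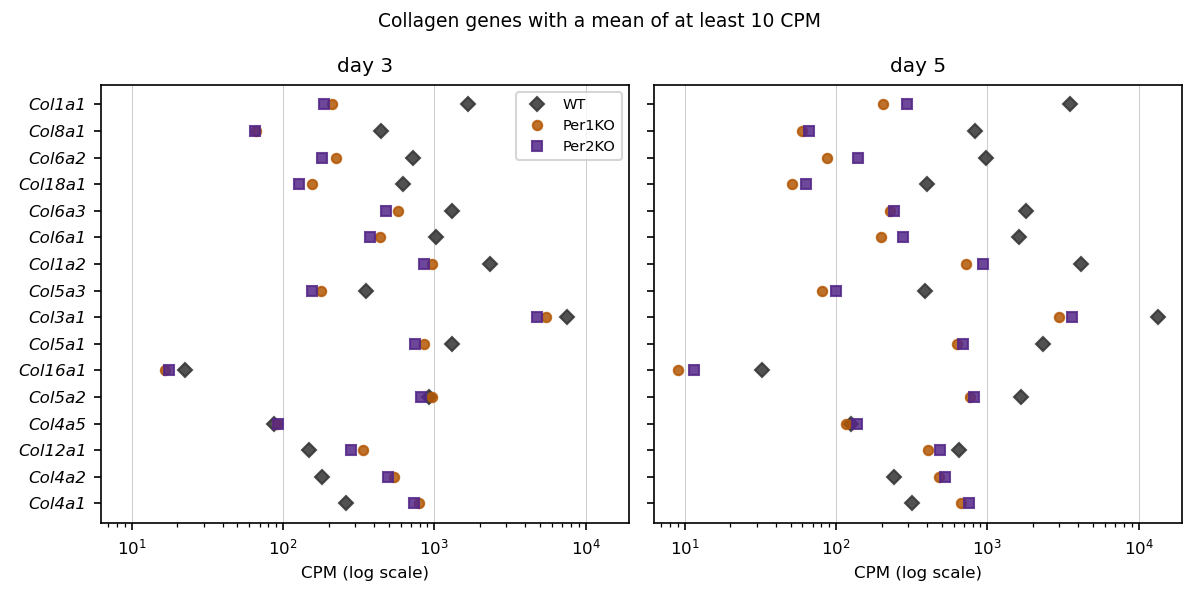
Level of the 16 collagen genes averaging 10 CPM or more in WT (diamonds), Per1KO (circles) and Per2KO (squares), on a log axis of CPM, for day 3 on the left and day 5 on the right, ordered by fold change. WT lies right of both knockouts for Col1a1 on both days and left of them for Col4a1 and Col4a2, and for Col3a1 the gap is wider on day 5.

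Of the myogenic factors Myog, Myod1 and Myf5, Myog had the largest difference. Among 13 tested myogenic transcription factors, 6 were lower and 1 higher (Srf), the latter not called without any of the knockout libraries. Myog, myogenin, the factor that starts terminal differentiation, was at 835 and 1025 CPM in WT, at 254 and 338 CPM in Per1KO, and at 220 and 262 CPM in Per2KO. Its groups were well apart, with a log2 fold change of -1.79 ± 0.12 (adjusted p-value 1.46e-04). Tead4, which myogenin and MyoD switch on, was at 87.4 and 131 CPM in WT and at 41.9 to 76.6 CPM in the knockouts (-0.93 ± 0.12). Myod1, the determination factor, was at 158 and 159 CPM in WT and at 115 to 141 CPM in the knockouts; its fall was small (-0.32 ± 0.08, adjusted p-value 0.0212) and its call was lost without any of Per1KO day 3 (-0.30, adjusted p-value 0.0803), Per1KO day 5 (-0.32, 0.0576) or Per2KO day 3 (-0.32, 0.0744). Myf5 was at 59.0 and 52.9 CPM in WT and at 44.3 to 64.3 CPM in the knockouts, and was not called.

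The fusion genes were called in both directions. Mymx, myomixer, a small membrane protein needed for fusion, was at 217 and 154 CPM in WT, at 45.2 and 41.7 CPM in Per1KO, and at 35.1 and 34.6 CPM in Per2KO. Every knockout library was below both WT libraries, with a log2 fold change of -2.23 ± 0.15 (adjusted p-value 1.35e-04). Mymk, myomaker, its partner, was at 1238 and 1159 CPM in WT, at 602 and 1038 CPM in Per1KO, and at 534 and 870 CPM in Per2KO. The gap was wide on day 3 and narrow on day 5: the value over both days was -0.72 ± 0.19 (adjusted p-value 0.0262), without WT day 3 it was -0.29, and without WT day 5 -1.14. The call was lost without WT day 3, Per1KO day 3 or either Per2KO library. Of the 15 fusion genes tested, 6 were higher, among them the membrane repair protein Myof, which was at 414 and 398 CPM in WT and at 718 to 809 CPM in the knockouts (0.93 ± 0.09, adjusted p-value 6.27e-04). The adhesion molecule Kirrel (0.53) and the exchange factor Dock1 (0.62) were at 0.26 and 0.25 without WT day 3 (Dock1 then not called), and Dock1 at 0.99 without WT day 5. The higher count was 3, with Kirrel and Dock1 not called, without Per1KO day 3 or either Per2KO library. The lower count of 2 was 1 without any of these and 4 without WT day 5.

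Each sarcomere list had more lower than higher calls. Of 27 tested genes of the Z-disc, M-band and titin, 17 were lower and 1 higher, with a median of -0.76. Of 18 thin filament genes it was 10 and 1 (-0.67), and of 13 sarcomeric myosins 7 and 1 (-0.57). The thin filament median was -0.98 in Per1KO and -1.07 in Per2KO on day 3, and -0.19 and -0.57 on day 5. In 10 of the 18 the difference changed between the days. The medians of the other sarcomere lists stayed between -0.89 and -0.51 on either day. Actn2, the actin cross-linker of the Z-disc, was at 124 and 190 CPM in WT, at 7.07 and 33.7 CPM in Per1KO, and at 6.61 and 23.8 CPM in Per2KO (-3.47 ± 0.31, adjusted p-value 4.34e-04). Csrp3, muscle LIM protein, was at 100 and 161 CPM in WT and at 10.2 to 25.1 CPM in the knockouts (-2.99 ± 0.14). Actc1, cardiac actin, which early myotubes use, was at 1764 and 1255 CPM in WT and at 345 to 445 CPM in the knockouts (-2.0 ± 0.17). All 3 were below WT in every library.

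Skeletal actin was closer to WT on day 5 than on day 3. Its gene Acta1 was at 7864 and 6742 CPM in WT, at 2835 and 4956 CPM in Per1KO, and at 2450 and 3853 CPM in Per2KO, with -1.12 ± 0.23 over both days (adjusted p-value 0.00985) and -0.62 without WT day 3. Myh3, embryonic myosin heavy chain, was at 4667 and 6975 CPM in WT and at 2171 to 3100 CPM in the knockouts (-1.21 ± 0.14). In other genes occur 11.2% of its 31-mers, and 8 of the 13 tested sarcomeric myosins share at least 10% of theirs. Ttn, titin, went the other way, at 519 and 988 CPM in WT, at 785 and 1396 CPM in Per1KO, and at 874 and 1637 CPM in Per2KO (0.65 ± 0.11, adjusted p-value 0.00475). With the GC and length trend removed its value was -0.37 instead, so its direction rests on the processing. The number of myosins called lower was 2 to 8 with a library left out, lowest without Per2KO day 5, 3 without WT day 3 or Per2KO day 3, and 4 without Per1KO day 3; those of the thin filament and Z-disc genes were 7 to 13 and 12 to 18. The summed level of the 10 myotube markers was 22820 and 24712 CPM in WT and 10387 to 18550 CPM in the knockouts.

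Genes that serve the sarcomere were called in both directions. Of 22 genes of excitation-contraction coupling, 10 were lower and 3 higher, with a median of -0.51. Cav3, caveolin of the muscle membrane, was at 49.2 and 105 CPM in WT and at 12.3 to 46.2 CPM in the knockouts (-1.67 ± 0.18). Trdn, triadin, which anchors calsequestrin at the calcium release channel, was at 6.32 and 20.6 CPM in WT, at 25.8 and 93.3 CPM in Per1KO, and at 29.4 and 76.4 CPM in Per2KO, above WT on each day (2.07 ± 0.15, adjusted p-value 1.91e-04). Of 17 genes of creatine kinase and glycolysis, 8 were lower and 1 higher, and 9 had a difference that changed between the days. The higher one, Gapdh, lost its call in 12 of the alternatives. Of the 17, 8 share at least 10% of their 31-mers with other genes. Pgam2, the muscle phosphoglycerate mutase, was at 76.5 and 88.9 CPM in WT and at 14.5 to 40.7 CPM in the knockouts (-1.85 ± 0.23). Ckm, muscle creatine kinase, was at 245 and 267 CPM in WT, at 147 and 419 CPM in Per1KO, and at 136 and 321 CPM in Per2KO. It was below WT on day 3, above it on day 5, and not called (-0.20 ± 0.28, adjusted p-value 0.590). Without WT day 5 its value was -0.81. Of 11 genes of the acetylcholine receptor and postsynapse, 4 were lower and 3 higher. Chrng, the embryonic receptor subunit, was at 477 and 781 CPM in WT and at 184 to 358 CPM in the knockouts (-1.28 ± 0.10), and Lrp4, the agrin receptor, at 171 and 268 CPM in WT and at 310 to 473 CPM in the knockouts (0.87 ± 0.09).

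Several secreted growth factors were among the lower genes. In the insulin-like growth factor axis 5 of 15 tested genes were lower and 3 higher (7 higher without WT day 5). Igf1, a ligand that drives muscle growth, was at 46.9 and 115 CPM in WT, at 5.23 and 6.21 CPM in Per1KO, and at 4.18 and 9.46 CPM in Per2KO (-3.62 ± 0.21, adjusted p-value 7.90e-05). The ligand Igf2 was at 420 and 374 CPM in WT and at 56.4 to 65.6 CPM in the knockouts, a steady gap of -2.70 ± 0.09 (adjusted p-value 1.30e-05); 65% of its exon bases overlap Igf2os or another gene, and whether strand was used in counting is not given in the sources used here. Their receptor Igf1r was at 31.1 and 49.8 CPM in WT and at 74.1 to 90.2 CPM in the knockouts (1.07 ± 0.19, and 0.66 without WT day 3).

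In the BMP and TGF-beta families, 16 of 28 tested genes were lower and 4 higher. Tgfb2 was at 84.8 and 109 CPM in WT and at 22.6 to 26.2 CPM in the knockouts (-1.97 ± 0.11), and Tgfb1 was at 108 and 90.8 CPM in WT and at 46.3 to 53.5 CPM (-0.98 ± 0.11). Neither overlapped WT. The stress-responsive ligand Gdf15 had -2.40 ± 0.28, and the intracellular inhibitors Smad6 and Smad7 had -1.97 and -1.05. The receptors Tgfbr1 (0.81 ± 0.12) and Bmpr1a (0.41 ± 0.07) were higher, as was the BMP antagonist Nog, whose values are above, whereas the receptor Bmpr1b, at 3.86 and 7.65 CPM in WT and at 0.116 to 0.402 CPM in the knockouts, was lower (-4.41 ± 0.52). Of 24 genes of FGF, HGF and PDGF signalling 8 were lower and 1 higher (Spry2, not called without any of the knockout libraries), and 5 were higher without WT day 5. Apart from Fgf21, Vegfa was at 203 and 300 CPM in WT and at 98.7 to 140 CPM in the knockouts (-1.09 ± 0.07, adjusted p-value 1.22e-04).

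Notch and Wnt genes were called in both directions. Of 13 Notch genes 4 were lower and 2 higher, near the shares of 21.1% and 16.3% over all tested genes. Heyl, a Notch target gene, was at 76.7 and 35.7 CPM in WT, at 5.62 and 3.59 CPM in Per1KO, and at 6.47 and 4.37 CPM in Per2KO (-3.45 ± 0.15, adjusted p-value 3.70e-05). Of the ligands, Jag1 was at 28.8 and 43.8 CPM in WT and at 11.3 to 13.0 CPM in the knockouts (-1.59 ± 0.17), and Dll1, 21% of whose exon bases overlap another gene, had 0.53 ± 0.11. The receptors Notch1, Notch2 and Notch3 had -0.16, 0.45 and 0.09 and were not called. Without WT day 5, Notch1 was at -0.39 and Notch2 at 0.83. Notch2 was at 0.08 without WT day 3 and was called without Per1KO day 5 (0.56, adjusted p-value 0.0437). Of 27 Wnt and Hedgehog genes 11 were lower and 6 higher (3 higher without Per1KO day 3). The ligand Wnt4 was lower (-1.42, but not called without WT day 5, at -0.86 with an adjusted p-value of 0.0939). Higher ligands were Wnt9a (0.84) and Wnt7b, which was at 7.55 and 3.40 CPM in WT and at 11.4 to 18.9 CPM in the knockouts (1.45 ± 0.21). Rspo3, a secreted amplifier of Wnt signals, had 2 counts in WT on day 3 and 0 on day 5, and was at least 2.33-fold higher in every knockout library against 3 counts per WT library.

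Genes of mitosis were the most widely raised list. Of 36 tested, 29 were higher and 0 lower, against 16.3% of all tested protein-coding genes called higher, and all 36 had a positive log2 fold change, with a median of 0.65. Ccna2, cyclin A, was at 52.3 and 16.6 CPM in WT, at 94.9 and 37.9 CPM in Per1KO, and at 96.6 and 37.3 CPM in Per2KO. Levels dropped between day 3 and day 5 in every genotype, and on each day both knockouts were above WT (0.99 ± 0.10, adjusted p-value 6.90e-04). Mki67, a marker of cycling cells, was at 66.4 and 31.7 CPM in WT, at 129 and 43.8 CPM in Per1KO, and at 134 and 48.8 CPM in Per2KO (0.79 ± 0.12, adjusted p-value 0.00367). Ect2, needed for cell division, was at 27.2 and 12.1 CPM in WT, at 56.3 and 22.3 CPM in Per1KO, and at 57.1 and 21.8 CPM in Per2KO (0.98 ± 0.10). In these 3 genes the WT day 3 level lay above the knockout levels of day 5, so the difference is one between libraries of the same day. The higher count was 22 to 30 with a library left out.

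DNA replication genes did not share that pattern. Of 39 tested, 3 were higher (Rrm1 and Pole among them) and 3 lower (E2f2, E2f8 and Rfc4), and 25 had a difference that changed between the days. The list's median was -0.18 in Per1KO and -0.16 in Per2KO on day 3, and 0.89 and 0.92 on day 5. Mcm5, a subunit of the replicative helicase, was at 43.5 and 5.74 CPM in WT, at 33.1 and 16.5 CPM in Per1KO, and at 30.1 and 17.8 CPM in Per2KO. It went from the highest level in WT on day 3 to the lowest on day 5, with an interaction of 2.04 (adjusted p-value 5.78e-04), defined below. Without WT day 3, which leaves the day 5 difference, 26 of the list were called higher and 1 lower, and without WT day 5 it was 10 lower. Of the 6 calls, those of Pole, E2f8 and Rfc4 were lost without WT day 3 (0.58, -0.23 and -0.25) and without Per1KO day 3, Per2KO day 3 or Per2KO day 5 (adjusted p-values up to 0.123), and that of Rfc4 also without Per1KO day 5. E2f2 had -0.64 and, without WT day 5, -0.35. Among 20 genes of cell cycle exit, 6 were lower and 3 higher, where 21.1% and 16.3% of all tested protein-coding genes were. Cdkn1a, the inhibitor p21, was at 1734 and 1732 CPM in WT, at 998 and 1454 CPM in Per1KO, and at 913 and 1254 CPM in Per2KO (-0.61 ± 0.14, adjusted p-value 0.0150). It was -0.36 without WT day 3, and its call was lost without Per1KO day 3 (-0.60, adjusted p-value 0.0601), Per2KO day 3 (-0.55, 0.0565) or Per2KO day 5 (-0.61, 0.0535).

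Lipid synthesis genes were raised by small amounts. Of 30 genes of cholesterol and fatty acid synthesis, 13 were higher and 2 lower, with a median of 0.27. Fdps, which makes farnesyl diphosphate, was at 27.4 and 11.9 CPM in WT, at 68.5 and 42.7 CPM in Per1KO, and at 70.5 and 42.8 CPM in Per2KO. It was above both WT libraries in every knockout library (1.54 ± 0.13, adjusted p-value 3.37e-04), but 27% of its exon bases overlap another gene. Scd1, a fatty acid desaturase, was at 1859 and 1473 CPM in WT and at 2741 to 3048 CPM in the knockouts (0.80 ± 0.13). Insig1, which holds back the activation of the sterol pathway, was at 93.4 and 91.2 CPM in WT and at 138 to 197 CPM (0.82 ± 0.11). Srebf1 and Dhcr7 were the lower members, with -0.78 ± 0.07 and -0.51 ± 0.15. The call of Dhcr7 was lost without WT day 5 (-0.22, adjusted p-value 0.207), Per1KO day 5 or either Per2KO library, and without WT day 3 its value was -0.79.

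Among 18 tested clock genes, 7 were lower and 3 higher, with a median of -0.13. The activator Arntl was at 32.8 and 36.8 CPM in WT, at 14.8 and 12.6 CPM in Per1KO, and at 19.5 and 16.1 CPM in Per2KO (-1.15 ± 0.18, adjusted p-value 0.00381). Nfil3, a repressor of clock output genes, was at 43.2 and 60.6 CPM in WT and at 11.6 to 13.5 CPM in the knockouts (-2.03 ± 0.11, adjusted p-value 6.98e-05). Bhlhe40, which inhibits CLOCK and BMAL1, was at 351 and 344 CPM in WT and at 144 to 180 CPM in the knockouts (-1.11 ± 0.09). Each of these 3 was below WT in every knockout library. Of the cryptochromes, Cry2 was at 27.0 and 50.2 CPM in WT and at 15.6 to 19.8 CPM in the knockouts (-1.09 ± 0.16), while Cry1, at 19 and 18.5 CPM in WT and at 21.1 to 28.0 CPM, was not called (0.37 ± 0.12, adjusted p-value 0.0527). Without WT day 3 it was at 0.55 and without WT day 5 at 0.18, and it was called under 3 settings that kept both WT libraries. Nr1d2, a nuclear receptor that represses Arntl, was higher, at 57.2 and 62.7 CPM in WT and at 83.1 to 100 CPM (0.57 ± 0.10, with 11% of its 31-mers in other genes), and its relative Nr1d1 was lower (-0.79 ± 0.11). Each library is a single sampling time, so clock phase and level cannot be told apart.

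**Figure D4:**
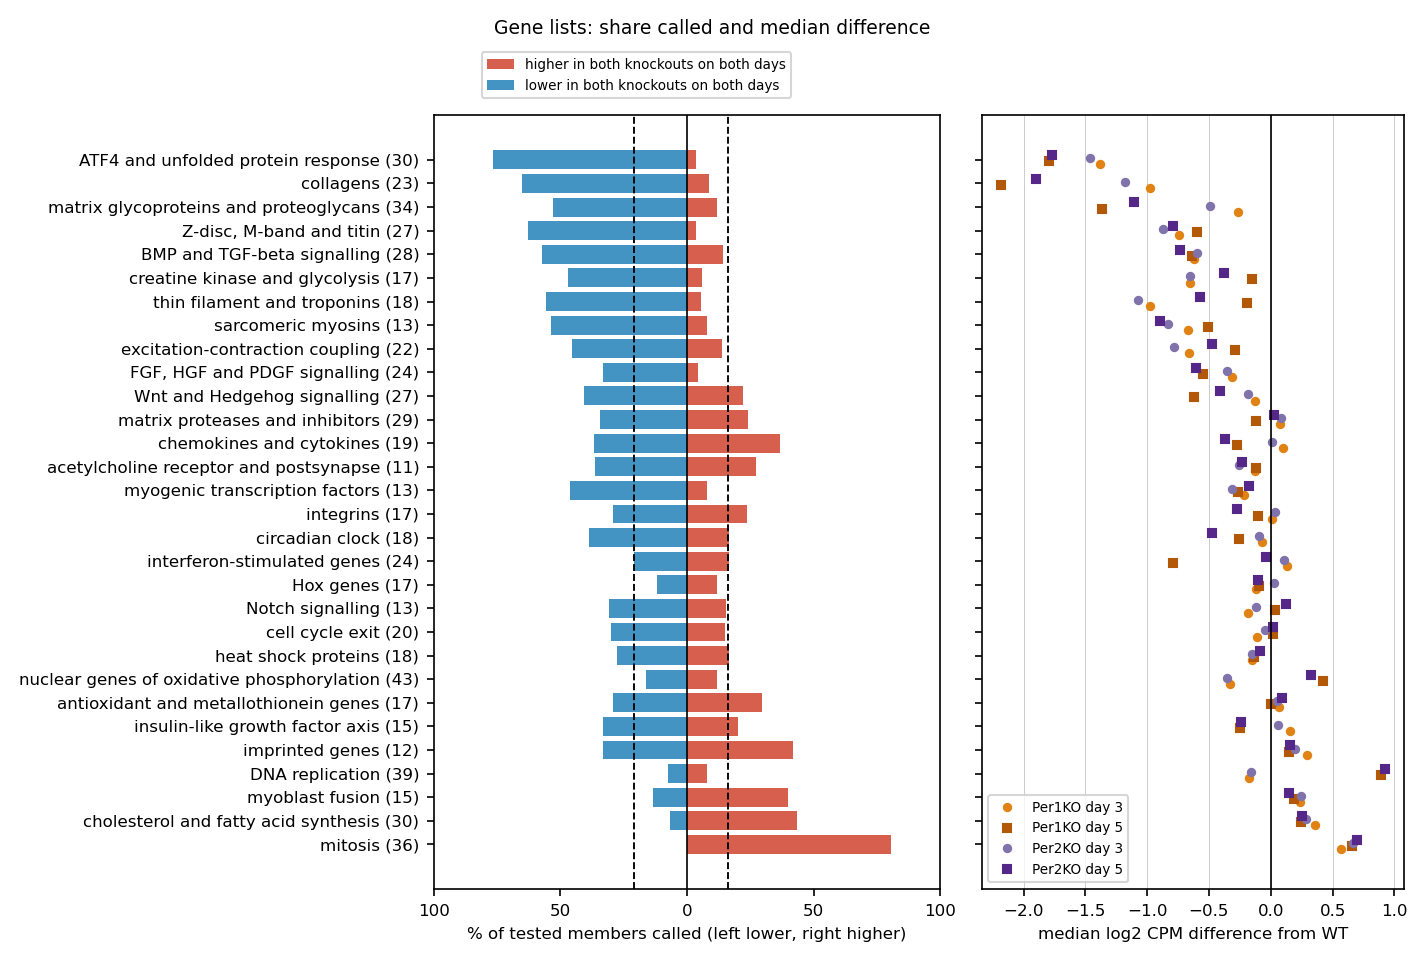
For 30 gene lists (number of tested members in parentheses), the left panel gives the percent of members called lower (bars to the left) and higher (bars to the right), with dashed lines at the shares over all tested protein-coding genes, 21.1% and 16.3%. The right panel gives the list's median log2 CPM difference from WT in each knockout on day 3 (circles) and day 5 (squares); the ATF4 list and the collagens lie farthest left and mitosis farthest right on the left panel, and DNA replication and oxidative phosphorylation change side between the days on the right panel.

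Whether a knockout difference changed between the days was tested as an interaction, the log2 difference from WT on day 5 minus that on day 3, with edgeR's quasi-likelihood test. It was called in 2521 protein-coding genes (21.4%), of which 1162 (9.85%) had the greater knockout value on day 5 and 1359 (11.5%) the smaller; in 1230 of the 2521 the difference from WT had opposite signs on the 2 days. Of the genes lower in the knockouts on both days, 463 also had an interaction, and in 278 of these the fall was larger on day 5. Of the genes higher on both days, 284 had an interaction, with the rise larger on day 5 in 151. Nuclear genes of oxidative phosphorylation were the most widely affected list, with an interaction in 36 of 43: their median was -0.33 in Per1KO and -0.35 in Per2KO on day 3, and 0.42 and 0.33 on day 5.

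The largest interactions, among genes averaging 10 CPM or more, had a WT level that moved between the days. Adamts16, a matrix metalloprotease, was at 18.1 CPM on day 3 and 128 CPM on day 5 in WT, and at 0.949 to 1.65 CPM in the knockouts, with an interaction of -3.27 (adjusted p-value 1.60e-04) beside a fall on both days (-5.38, or -3.51 without WT day 5). Scara5, a ferritin receptor, was at 5.62 and 52.1 CPM in WT and at 5.87 to 7.29 CPM in the knockouts (-3.02). Xdh, xanthine dehydrogenase, was at 1.93 and 20.0 CPM in WT and at 8.78 to 12.8 CPM in the knockouts (-3.04), so that the knockouts were above WT on day 3 and below it on day 5. In the opposite direction, Nmrk2, a nicotinamide riboside kinase of muscle, was at 13.7 and 5.32 CPM in WT, at 5.43 and 20.0 CPM in Per1KO, and at 4.12 and 13.6 CPM in Per2KO (3.18, adjusted p-value 0.0311). Smim5 and Mss51 had interactions of 2.60 and 2.51, with a drop in WT and a rise in both knockouts between the days.

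**Figure D5:**
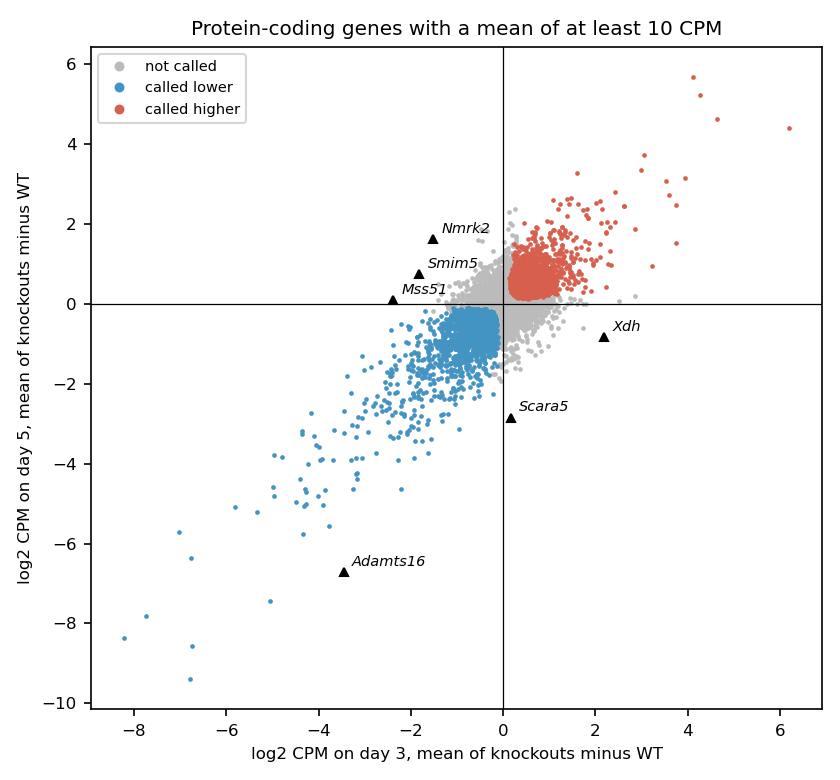
Mean log2 CPM difference of the knockouts from WT on day 3 (x axis) and on day 5 (y axis) for the 9046 protein-coding genes averaging 10 CPM or more, 1 point per gene, coloured by the call over both days. Called genes fill the lower left and upper right, and the 6 triangles mark the largest interactions, such as Adamts16, lower on both days and further from WT on day 5, and Xdh and Nmrk2, on opposite sides of WT on the 2 days; the 4 points farthest to the upper right are genes with at least 10% shared 31-mers, which the list of largest rises left out.

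The day 0 libraries, which did not enter the comparison, give a description of the same genes before differentiation. Of the genes called lower on days 3 and 5, 66.4% were below WT in both knockouts on day 0, against 42.6% of all tested protein-coding genes. Of the genes called higher, 61.2% were above WT in both, against 39.9%. Of the 578 genes at least 2-fold lower in every pair, 47.1% were also at least 2-fold lower on day 0 in both knockouts, against 6.35% of all tested. Myog is an example of a gene that was already apart, at 129 CPM in WT, 5.74 CPM in Per1KO and 3.15 CPM in Per2KO on day 0. Igf1 was at 1.62, 0.0435 and 0.0213 CPM. Its knockout values lie under the level of 3 counts (0.0652 CPM in Per1KO and 0.0637 CPM in Per2KO), so they rest on very few reads. Of the day 0 medians of the ATF4 list, given above, that of Per1KO was below 0 and that of Per2KO above it. The thin filament median on day 0 was -1.92 in Per1KO and -2.19 in Per2KO, and that of the sarcomeric myosins -2.64 and -3.43. That of the Z-disc, M-band and titin list was -0.75 and -0.96. The day 0 libraries also separated the knockouts from each other more, with 128 of 9046 genes (1.41%) at least 2-fold apart, against 5 (0.0553%) on day 3 and 16 (0.177%) on day 5.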

How the data were processed

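The authors deposited a table of unnormalized read counts, 1 row per Ensembl gene. Poly(A) libraries came from a TruSeq kit and single-read Illumina sequencing, per the labels' protocols. The submitters' processing notes name CASAVA 1.8, HISAT2 2.1.0 and mm10; the counting program, the annotation and the use of strand are not given in the sources used here. Of 47729 genes, 47310 matched GENCODE M21 on GRCm38, the same assembly as mm10; the other 419 held at most 0.0174% of any library. No line lacked a gene name. Groups and days were taken from the labels.

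Genes that reached 1 CPM in 2 or more of the 6 libraries entered edgeR 4.0.16 (limma 3.58.1, R 4.3.3): TMM scaling, robust quasi-likelihood fit of day and knockout with 3 residual degrees of freedom, Benjamini-Hochberg adjustment over 13370 genes at 0.05. Adjusted p-values come from this fit, except where a library is said to be left out or an interaction is given. Those come from the same kind of test on their own fits. Separate-knockout and interaction fits had 2 residual degrees of freedom. Each ± is the size of the log2 fold change over the square root of the test's F value. It approximates a standard error and was not estimated on its own. Same-day differences used log2 CPM with a prior count of 2. The share of a gene's 31-mers found in other genes was computed on longest transcripts. On simulated counts of this comparison with 13370 genes, 82 of 100 genes changed 2-fold and 95 of 100 changed 4-fold were recovered, with 6 false calls. The simulation changed far fewer genes than were called in the data and took its spread from these libraries. It therefore cannot show false calls that come from differences between WT cultures.

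The named genes are Per1 and Per2, the 12 largest rises and falls by the smallest of the 4 differences among called genes averaging 10 CPM or more with under 10% shared 31-mers, up to 3 called genes per list and direction, and the 3 largest interactions each way. Further list members named for their role, such as Atf4, Hspa5, Col3a1, Fn1, Mki67 and Ckm, were chosen after their values were seen. The members and the gene lists were chosen with earlier results of these data known. Alternatives included DESeq2 1.42.0, other scaling and filters, thinning to 5020385 counts per library, all 9 libraries, no day block, and each library or knockout left out; removal of the GC and length trend (splines of 5 degrees of freedom) was added after the data were seen.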

Additional observations from a re-analysis of the deposited data

Results flagged for a closer look

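The knockout difference from WT changed between day 3 and day 5, by edgeR's test of the interaction, in 2521 protein-coding genes. The genes with the largest such changes among those averaging 10 CPM or more were Adamts16 (-3.27), Xdh (-3.04) and Scara5 (-3.02), where the knockout value relative to WT was smaller on day 5, and Nmrk2 (3.18), Smim5 (2.60) and Mss51 (2.51), where it was greater. Xdh was at 1.93 CPM in WT on day 3 and 20.0 CPM on day 5, and Nmrk2 at 13.7 and 5.32 CPM. The WT level on each day is a single library, so a change of WT between the days and a property of that library cannot be told apart.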

How the results depend on the processing

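No paired analysis was possible because each genotype and day has 1 sample, numbered 1 in every group; the day served as the block. The counts of protein-coding genes called higher (1928) and lower (2483) depended most on how the knockout libraries entered. Without the Per1KO libraries they were 686 and 1261, without the Per2KO libraries 602 and 1131, and with a call required in each knockout tested separately 866 and 1346; without the day block they were 1172 and 1730. With any single library left out they ranged from 1139 to 2587 and from 1707 to 3038. Over genes with under 10% shared 31-mers, the counts without Per1KO were 578 higher and 1112 lower, without Per2KO 504 and 998, with both tested separately 742 and 1194, and without the day block 1006 and 1548; with a library left out they were 976 to 2350 and 1533 to 2753. DESeq2 gave 2078 higher and 2629 lower, and 1367 genes with an interaction in place of 2521. Genes called higher were 43.7% of the calls; with no filter on low counts they were 54.3% (2439 higher, 2054 lower), where the median of all protein-coding genes was 0.11 in place of -0.01. Of 4410 comparisons of 248 named genes with an alternative, 3989 kept the call and direction, and 4 reversed: the Mcm5 log2 fold change, from -0.47 (without WT day 5) to 1.57 (without WT day 3), the Sdf2l1 log2 fold change, from -0.63 (without WT day 5) to 0.86 (without WT day 3), the Xdh log2 fold change, from -0.83 (without WT day 3) to 2.21 (without WT day 5), and the Ttn log2 fold change, -0.37 with the GC and length trend removed. The cause of these changes was not tested, including that of Ttn, where the alternative removes the trend by construction. WT depth limits low genes: a gene under 0.638 CPM in WT cannot be told from 0.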

Other observations

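Gene groups that the text has not described were called in both directions, where 16.3% of all tested protein-coding genes were called higher and 21.1% lower. Of 12 tested imprinted genes, 5 were higher and 4 lower: Zim1, a zinc finger gene, was at 24.2 and 43.8 CPM in WT on days 3 and 5 and at 108 to 152 CPM in the knockouts (log2 fold change 1.99 ± 0.14, adjusted p-value 1.46e-04). Its neighbour Peg3 was at 258 and 387 CPM in WT and at 586 to 677 CPM (1.00 ± 0.13). Mest had 1.35 and Sgce 0.72, with 23% of the exon bases of Mest in another gene, whereas Cdkn1c, a cell cycle inhibitor, was at 17.9 and 1.49 CPM in WT and at 0.0472 to 0.141 CPM in the knockouts, where it rests on few reads. The count of 4 was 2 without WT day 3. Of 19 chemokine and cytokine genes, 7 were higher and 7 lower. Cxcl5, a chemokine that draws neutrophils, had 0 and 2 counts in WT and was at least 8.28-fold higher in every knockout library against 3 counts per WT library, while Tnfrsf11b, osteoprotegerin, was at 2.63 and 4.25 CPM in WT and at 0.0805 to 0.330 CPM in the knockouts (-4.16 ± 0.38). Of 24 interferon-stimulated genes, 4 were higher (Irf1, Ifit2 and Gbp2 among them) and 5 lower, near the shares over all tested genes. Without Per2KO day 3, 2 were higher. The antigen-presenting genes H2-K1 and H2-D1 were lower (-2.29 ± 0.09 and -1.81 ± 0.09), with 21% and 27% of their 31-mers in other genes. Of 17 antioxidant and metallothionein genes, 5 were higher and 5 lower. Sod3, the extracellular superoxide dismutase, was at 73.2 and 157 CPM in WT and at 3.94 to 5.78 CPM in the knockouts (-4.49 ± 0.28, adjusted p-value 1.04e-04). Srxn1 and Gstm1 were higher (0.92 ± 0.11 and 1.12 ± 0.10), the latter with 34% shared 31-mers.

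Calls were unevenly spread over the chromosomes. Over protein-coding genes with under 10% shared 31-mers, 37.1% of the 595 tested genes of chromosome 8 were lower and 6.55% higher, against 21.2% and 15.8% over all chromosomes. Their median log2 fold change was -0.22, and on day 0 the median difference from WT was -0.22 in Per1KO and -0.20 in Per2KO. On chromosome X, 28.6% of 329 genes were higher and 10.3% lower, with a median of 0.18, and on chromosome 18 the values were 28.2%, 16.8% and 0.11. The medians of the other chromosomes ran from -0.10 (chromosome 9) to 0.08 (chromosomes 2 and 3).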
